A study of Mus musculus with 6 samples.

Results

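Genes of iron handling were followed in cultured mesenchymal cells of the fetal mouse prostate, with 100 nM estradiol (E2) and without it. They were the ferritin receptor Ncoa4, the ferritin subunits Fth1 and Ftl1, the importers Tfrc and Slc11a2, the metalloreductase Steap4, the exporter Slc40a1, the heme-degrading enzyme Hmox1 and the iron sensors Ireb2 and Aco1. Members were all probe sets of an Affymetrix mouse expression array that the array annotation assigns to 1 of these 10 symbols and to no other, and 21 of 22690 probe sets met this rule. A probe set is a group of short probes that reads the transcripts it matches as 1 fluorescence signal. Of the 21, 18 were regular probe sets of 9 genes, of 12394 genes named on the array in this way, and 3 were quality control probe sets of the array built on Tfrc. Ftl1 had none of its own, because its 3 probe sets are also annotated to the pseudogene Ftl1-ps2, and these were read separately. The genes were chosen with the difference between E2 and control on these same arrays already known, so their differences are given as a description and not as a test.

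E2 cells were urogenital sinus mesenchyme of male CD-1 fetuses at gestation day 17, treated with 100 nM estradiol for 4 days. Control cells were the same cells given the ethanol vehicle in place of estradiol. Both groups were first-passage primary cultures in hormone-stripped serum with insulin, transferrin and selenium, so transferrin, the iron carrier of blood, was present throughout. Both were kept in 690 pM dihydrotestosterone and spent 3 days without estrogen before treatment, and there were 3 arrays per group. The labels do not say whether the replicates came from separate cell preparations, so their spread may be technical. Each array was scaled to its median, since the medians of the deposited values ran from 13.7 to 21.8 units. Values below are scaled signals, in fluorescence units, and differences are log2 E2 minus control. A probe set entered the fit if its deposited values averaged 10 units or more in E2 or in control cells, which left 14223 probe sets, 17 of the 18 regular ones of these genes among them.

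Iron enters most cells bound to transferrin through the transferrin receptor, is released in the endosome, reduced by a STEAP metalloreductase and carried into the cytosol by Slc11a2, the divalent metal transporter. Surplus iron is stored inside ferritin, a shell of heavy (Fth1) and light (Ftl1) chains. Ncoa4 brings ferritin to the autophagosome for breakdown, which frees the iron, and it was first described as a coactivator of the androgen receptor. The iron regulatory proteins Aco1 and Ireb2 bind stem-loops in mRNAs when iron is scarce, which stabilizes the Tfrc message and blocks translation of the ferritin and Slc40a1 messages.

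The arrays bore the signal of mesenchyme. The 8 mesenchymal markers measured, collagens, vimentin, decorin, Thy1 and both platelet-derived growth factor receptors, were all above 10 units, and their summed signal was 13924 to 14734 units with E2 and 14426 to 16339 units in control. Of 5 endothelial and 7 erythroid markers, 4 and 6 were below 10 units in both groups, the erythroid ones including Alas2 and the beta-globin Hbb-b2. The 8 epithelial markers summed to 134 to 144 units with E2 and 54.4 to 91.6 units in control, and 4 of them, Epcam and Cdh1 included, were below 10 units in both groups. The other 4, all keratins, were higher on every E2 array, as were 5.72% of all probe sets tested. Krt8, Krt14 and Krt19 averaged 6.46, 5.64 and 8.79 units in control and entered the fit through their E2 means alone, so they could pass only as higher. Krt18, above 10 units in both groups, rose by 0.87 (SE 0.18, adjusted p = 0.0416 from limma). The part of the epithelial markers in the differences of the iron genes was not tested. A 5′ control probe set of 18S ribosomal RNA read 366 units on E2 replicate 2 and 350 units on control replicate 3, but between 21.9 and 45.5 units elsewhere. A difference that moved by over 1.5 times without these arrays is given with and without them.

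Ncoa4 was lower with E2 by both of its probe sets and by a similar amount. By probe set 1450006_at, the signal was 246, 289 and 293 units in E2 replicates 1 to 3 and 443, 485 and 461 units in control replicates 1 to 3. The highest E2 array lay well below the lowest control array, and the group means were 276 ± 25.8 units with E2 and 463 ± 21.0 units in control (SD, n = 3 each). On the log2 scale the difference was -0.75 (SE 0.12), so that control cells held 1.68 times the signal of E2 cells. The second probe set, 1420808_at, read 264, 180 and 325 units with E2 and 391, 495 and 367 units in control. Its groups did not overlap either, although the arrays within a group lay farther apart, with E2 replicate 2 the lowest of all. The difference was -0.73 (SE 0.19), and -0.50 without E2 replicate 2.

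The ferritin heavy chain Fth1, which carries the ferroxidase site of ferritin, showed a smaller difference in the same direction. Probe set 1427021_s_at read 2726, 2726 and 2850 units with E2 and 3345, 3002 and 3913 units in control, a difference of -0.30 (SE 0.11). Probe set 1448771_a_at read 1120, 914 and 1093 units with E2 and 1180, 1169 and 1368 units in control, a difference of -0.25 (SE 0.11). In both, all E2 arrays lay below all control arrays, but the gap between the nearest arrays was narrow. Without the arrays of high 18S signal the differences were -0.19 and -0.09. The suffix of the first probe set, _s_at, marks probes that match several transcripts, so the signal may include ferritin pseudogenes. The probe sets annotated to the light chain Ftl1 together with its pseudogene overlapped between the groups. The brightest, 1422302_s_at, averaged 879 ± 29.5 units with E2 and 966 ± 87.7 units in control (SD, n = 3 each). Its difference was -0.13 (SE 0.11), and the other bright one, 1418364_a_at, had -0.16 (SE 0.12). The third, dim at 32.3 units with E2 and 29.0 units in control, is annotated to microRNA genes as well and had a difference of 0.16 (SE 0.31).

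Steap4, a metalloreductase that reduces iron and copper and is known as an inflammation- and nutrient-responsive gene of fat tissue, had the largest difference of the 10 genes. Probe set 1460197_a_at read 10.4, 18.5 and 15.1 units with E2, against 35.1, 28.0 and 48.1 units in control. The signal was faint in every E2 culture and the arrays of the groups did not overlap. The means were 14.7 ± 4.05 units with E2 and 37.1 ± 10.2 units in control (SD, n = 3 each), a log2 difference of -1.34 (SE 0.30) and a 2.53-fold higher signal in control. The dimmer probe set 1425829_a_at read 13.4, 15.2 and 13.4 units with E2 and 20.4, 24.7 and 35.8 units in control, again without overlap. Its difference was -0.91 (SE 0.30). With E2 both probe sets lay little above 10 units, so the size of the fold depends on the treatment of faint signal. With 16 units added before the log2 transformation the differences were -0.78 and -0.50.

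**Figure D1:**
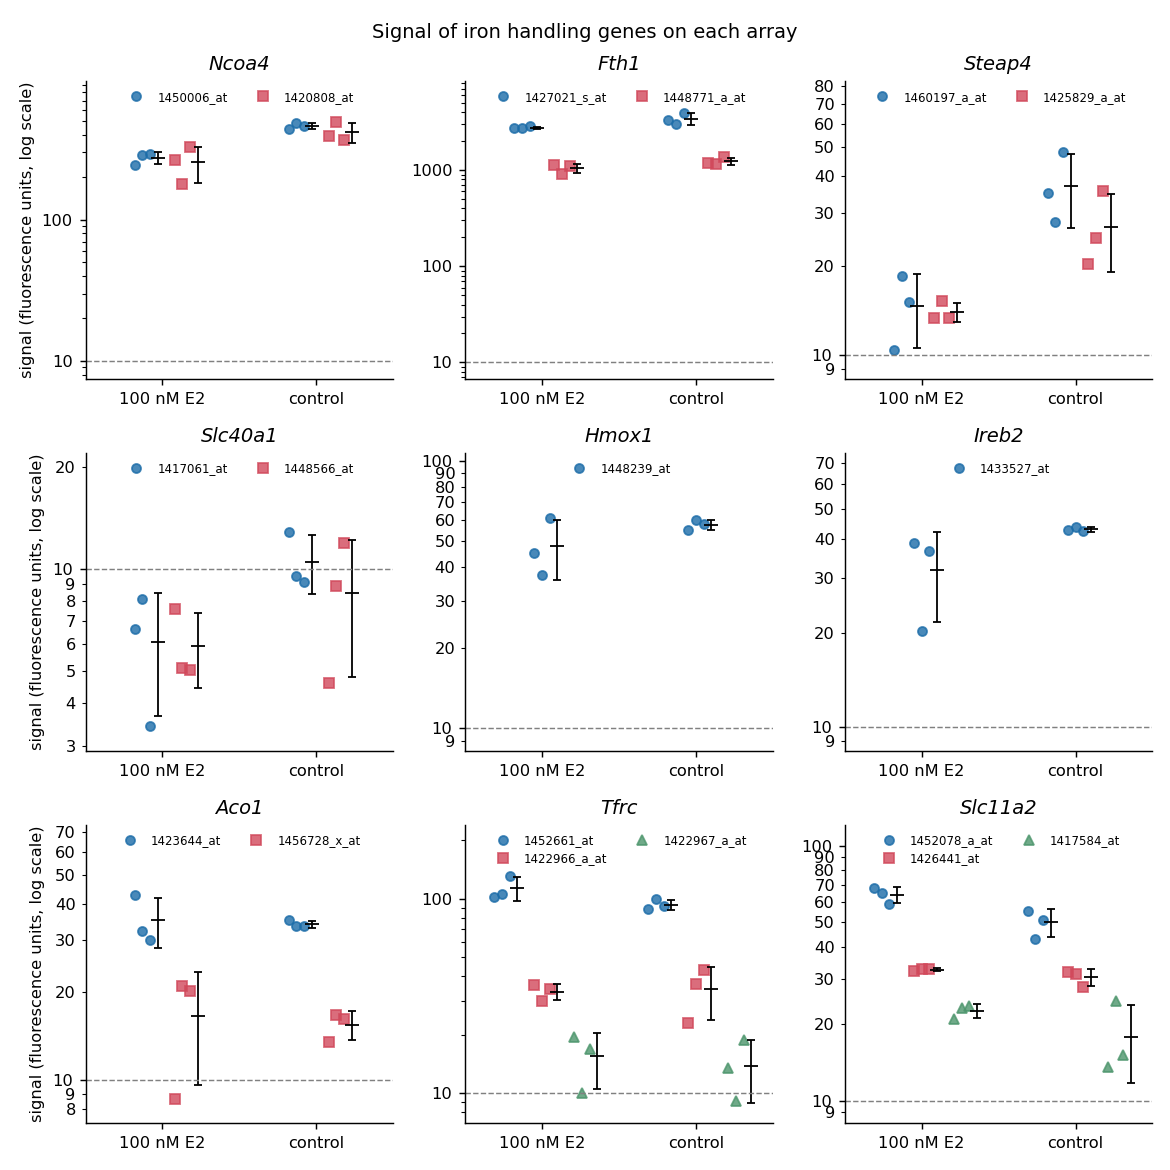
Signal of each regular probe set of 9 iron handling genes, in fluorescence units on a log scale, with cells treated with 100 nM E2 on the left and control cells on the right of each panel. Points are arrays, black marks are the mean and SD of 3 arrays, and the dashed line is 10 units. Both Ncoa4 probe sets and both Steap4 probe sets sit lower with E2 on every array, and the Slc40a1 probe sets straddle the 10-unit line.

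For the 3 genes with both probe sets lower on all E2 arrays, the 250 bases upstream of a RefSeq transcription start (GRCm38.p6) are shown, since they are the promoter-proximal sequence that these genes could share. The windows are chr14:32165539-32165788 for Ncoa4, at the third of its 3 listed starts, chr19:9982396-9982645 for Fth1, at the second of its 2, and chr5:7960222-7960471 for Steap4, all on the plus strand. Capitals mark TGACC, which is 1 arm of the palindromic estrogen response element, and CCAAT, both searched on either strand, and TATAA, searched on the strand of the gene only.
Ncoa4: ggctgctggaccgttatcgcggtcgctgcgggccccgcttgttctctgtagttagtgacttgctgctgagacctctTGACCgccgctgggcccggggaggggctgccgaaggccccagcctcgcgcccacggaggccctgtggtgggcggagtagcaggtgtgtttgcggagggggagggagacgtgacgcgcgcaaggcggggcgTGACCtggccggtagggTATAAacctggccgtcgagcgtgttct
Fth1: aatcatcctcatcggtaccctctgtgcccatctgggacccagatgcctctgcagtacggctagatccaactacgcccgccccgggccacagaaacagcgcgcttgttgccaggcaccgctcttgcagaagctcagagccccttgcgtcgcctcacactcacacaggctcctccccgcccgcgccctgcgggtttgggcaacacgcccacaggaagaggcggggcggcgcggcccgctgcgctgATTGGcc
Steap4: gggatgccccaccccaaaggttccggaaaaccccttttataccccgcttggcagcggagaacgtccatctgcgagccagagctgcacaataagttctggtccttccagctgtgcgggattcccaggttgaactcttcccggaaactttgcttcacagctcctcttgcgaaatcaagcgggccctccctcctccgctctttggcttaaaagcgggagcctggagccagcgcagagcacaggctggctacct
The Ncoa4 window held TGACC at 174 and 44 bases before the start and TATAA at 27 bases before it, and the other Ncoa4 windows held none of the letters searched. The Fth1 window held 1 CCAAT, on the opposite strand, 7 bases before the start, and the Steap4 window held none of the letters searched. The 3 windows thus had no searched motif in common. Over all 32851 promoter windows of this length, 35.2% held TGACC, 16% TATAA and 33.8% CCAAT. The full element, GGTCA and TGACC with 3 bases of any kind between them, which contains the arm searched above, was in 0.0639% of all windows and in none of the 11 windows of the 7 genes listed, which were Ncoa4, Fth1, Ftl1, Tfrc, Ireb2, Aco1 and Steap4. The core of the antioxidant response element, TGACNNNGC on either strand, was in 10.2% of all windows and, among these 11, in the third Ncoa4 window, where it overlaps the TGACC nearest to the start. Such matches describe the letters only.

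Of the importers, Tfrc and Slc11a2, neither was called. On all E2 arrays 1 of 3 Tfrc probe sets and 2 of 3 Slc11a2 probe sets lay higher, as did 5.72% of all probe sets tested. Nothing is read from these counts, because the genes were chosen on this contrast. Tfrc, the transferrin receptor, read 102, 106 and 131 units with E2 and 88.5, 99.5 and 91.5 units in control by its brightest probe set, 1452661_at. All E2 arrays lay above control, by a narrow margin, with a difference of 0.27 (SE 0.15). The other regular probe sets of Tfrc overlapped, with differences of 0.01 (SE 0.25) for 1422966_a_at and 0.17 (SE 0.40) for 1422967_a_at, the last of which lay near 10 units. Without the arrays of high 18S signal they were 0.28 and 0.71. The array's own control probe sets for the 3′ end, middle and 5′ end of Tfrc were outside the fit. They averaged 22.8, 8.64 and 7.20 units with E2 and 21.2, 6.02 and 10.9 units in control, and differed by 0.19, 0.52 and -0.79. The middle and 5′ ones lay near or below 10 units, and the 5′ one read 2.82 units on E2 replicate 2, so the size of these differences was not measured.

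Slc11a2, the proton-coupled importer of divalent iron, had 3 probe sets with positive differences. The brightest, 1452078_a_at, read 68.2, 64.9 and 59.2 units with E2 and 55.6, 43.2 and 51.2 units in control, with a difference of 0.36 (SE 0.17). All E2 arrays were higher. The probe set 1426441_at was also higher on all E2 arrays, but only by 0.11 (SE 0.20), and by 0.04 without the arrays of high 18S signal, at 32.6 ± 0.327 units with E2 and 30.4 ± 2.28 units in control (SD, n = 3 each). The probe set 1417584_at overlapped, with a difference of 0.39 (SE 0.30) that rested on control replicates 1 and 3, at 13.5 and 15.1 units, against 24.5 units in control replicate 2.

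The exporter and the heme oxygenase were faint or variable. Slc40a1, or ferroportin, the known iron exporter of vertebrate cells, read 6.61, 8.11 and 3.43 units with E2 and 12.9, 9.48 and 9.11 units in control by probe set 1417061_at. The E2 arrays lay lower, but this probe set entered the fit through its control mean alone. All E2 arrays were below 10 units, so the size of the difference was not measured, and the fitted value of -0.86 (SE 0.62) became -0.12 with signals under 10 units set to 10. The second probe set, 1448566_at, was below 10 units in both groups and overlapped. Hmox1, which opens the heme ring and frees its iron, read 45.3, 37.5 and 61.1 units with E2 and 55.2, 59.9 and 57.9 units in control. The groups overlapped, the control arrays lay close together and the E2 arrays did not, and the difference was -0.29 (SE 0.20). It was -0.13 without E2 replicate 2 or with the pair of high-18S arrays left out, and -0.48 without E2 replicate 3.

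Slc40a1, Hmox1 and Fth1 are also abundant in macrophages, which recycle iron. Of 19 macrophage and leukocyte markers measured, 17 were tested and all 17 differences were negative (median -0.43), against 56.6% of all probe sets tested (median -0.04). None was past the limma threshold (0 of 17), and 4 were lower at an unadjusted p under 0.05, as were 4.55% of all probe sets. These 4 were the complement genes C1qb (-1.24, adjusted p = 0.0630 from limma) and C1qa (-0.84), the protease Ctss (-0.75) and the adaptor Tyrobp (-0.49). The 19 markers summed to 738 to 866 units with E2 and 808 to 1324 units in control, and 3 of the 19, Itgam, Cd163 and Mrc1, averaged below 10 units in both groups. Lyz2, lysozyme 2, averaged 376 units with E2 and 477 units in control. The part of these markers in the differences of the iron genes was not tested. In a bulk culture, fewer cells of a type and less RNA per cell cannot be told apart.

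The iron sensors differed from each other. Ireb2, iron regulatory protein 2, which is itself degraded when iron is plentiful, read 38.9, 20.2 and 36.5 units with E2 and 42.9, 43.9 and 42.3 units in control. All E2 arrays were lower, but most of the gap came from 1 array. The difference was -0.49 (SE 0.25) on all arrays and -0.19 without E2 replicate 2, and -0.20 with the pair of high-18S arrays left out. Aco1, iron regulatory protein 1, which doubles as the cytosolic aconitase when it holds an iron-sulfur cluster, overlapped by both probe sets. Its brighter one, 1423644_at, averaged 35.1 ± 6.88 units with E2 and 34.1 ± 0.894 units in control (SD, n = 3 each), a difference of 0.03 (SE 0.21), and 1456728_x_at had -0.00376 (SE 0.39). Without the arrays of high 18S signal they were 0.06 and -0.19.

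Over the 17 member probe sets tested, 8 lay lower on all E2 arrays, 3 lay higher on all E2 arrays and 6 overlapped, with a median difference of -0.25. Without Slc40a1, which could pass only as lower, 7 of 16 lay lower, 3 higher and 6 overlapped, with a median of -0.13. Over all probe sets tested, 14.2% did not overlap, 8.49% lower and 5.72% higher, and the median difference was -0.04. Because the genes were chosen on this contrast, nothing is read from the excess. In the fit across all probe sets (limma with Benjamini-Hochberg adjustment), 1 of the 17 was called lower and 0 higher, the called one being 1450006_at of Ncoa4. That call was lost without E2 replicate 1 or control replicate 2, with the values as deposited, and without a variance trend or moderation. Of all probe sets 0.745% were called, 0.253% lower and 0.492% higher, which are 36 and 70 probe sets, or 7 and 39 with the values as deposited. At an unadjusted p under 0.05, 6 of the 17 were lower and 0 higher. Of all probe sets, 4.55% passed as lower and 7.99% in either direction. The 6 were both probe sets of Ncoa4, Fth1 and Steap4, so that by the brightest probe set 3 of 9 genes were lower. Nothing is read from this count either.

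**Figure D2:**
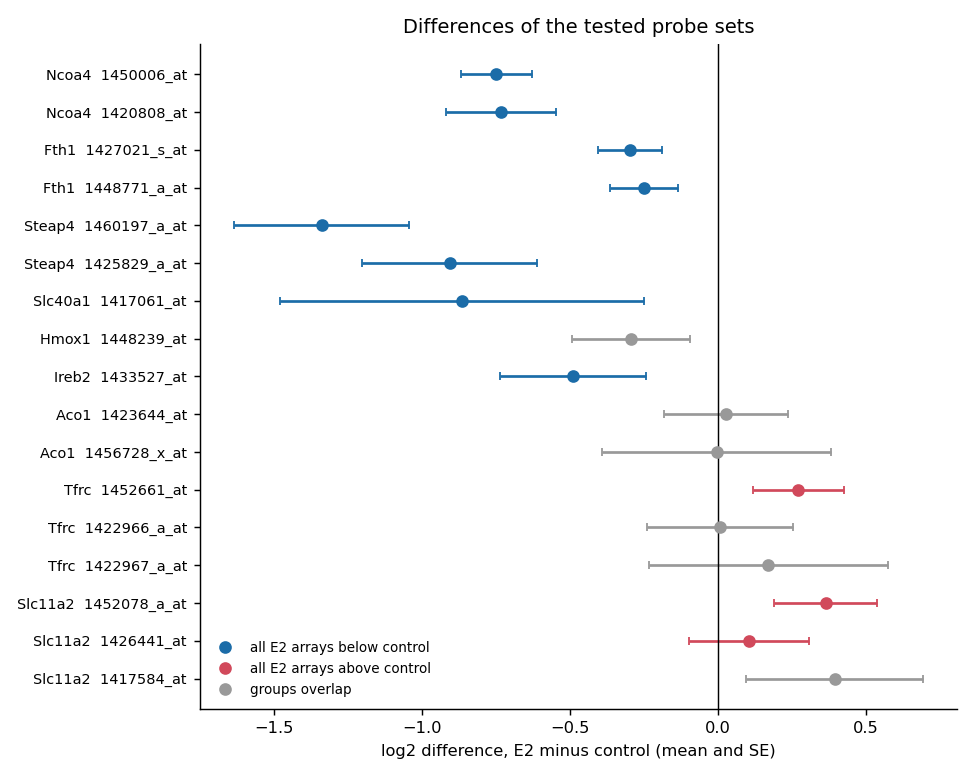
Log2 difference, E2 minus control, with its standard error (bars) for the 17 probe sets tested, grouped by gene. Blue points have all E2 arrays below control, red points all E2 arrays above control, and grey points have overlapping groups. Steap4 reaches -1.34 and Ncoa4 -0.75, while Slc11a2 reaches 0.39.

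The wider pathway was described from lists of genes by role, a gene being read by whichever of its probe sets had the highest mean log2 signal. Of the 79 tested genes other than those above, limma called 1 lower and 0 higher, and 5 lay lower and 5 higher on all E2 arrays, or 12.7%, with a median difference of -0.09. Over all 8257 genes tested by their brightest probe set, limma called 28 lower and 47 higher, and 8.34% had an unadjusted p under 0.05. Of these 8257, 14.5% did not overlap and the median difference was -0.03. With so few called over all genes, 0 called in a list, or 1 of the 79, is not read as a result about that list. Among the 79, the 1 gene called was Lcn2, lipocalin 2, which binds iron-carrying siderophores. Lcn2 fell to 60.2, 27.7 and 62.3 units with E2, against 245, 301 and 372 units in control, with no overlap. This was a difference of -2.68 on the log2 scale (SE 0.26), with an adjusted p of 9.07e-05 by limma.

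Among the other 7 uptake genes tested, none passed. Steap3, the endosomal ferrireductase of erythroid cells, averaged 16.7 ± 5.78 units with E2 and 27.2 ± 3.80 units in control (difference -0.75, adjusted p = 0.527 from limma, SD, n = 3 each). Its groups overlapped. Slc22a17, a receptor for lipocalin 2, averaged 41.2 ± 2.82 units with E2 and 29.6 ± 9.74 units in control, and lay higher on all E2 arrays (difference 0.54, adjusted p = 0.632 from limma, SD, n = 3 each). Its control arrays read 18.4, 35.3 and 35.2 units, so the difference rested largely on control replicate 1. Steap3 therefore had the sign of Steap4, and Slc22a17 the opposite sign to Lcn2, but neither was called.

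None of the 5 further genes of storage, iron chaperoning and ferritin turnover passed (0 by limma, and 0 by an unadjusted p under 0.05). The iron chaperone Pcbp2 had a difference of -0.12 and Pcbp4 of the same family had -0.33, both with overlap. Herc2, part of the ubiquitin ligase system that degrades NCOA4 in iron-replete human cells, lay higher on all E2 arrays, at 62.4, 50.6 and 54.0 units with E2 and 48.6, 45.8 and 44.5 units in control. Its difference was 0.26 (adjusted p = 0.757 from limma).

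Of the 3 further export and oxidation genes, limma called 0 and 1 was higher at an unadjusted p under 0.05. This was Heph, hephaestin, the ferroxidase that works with ferroportin, with 28.8, 22.1 and 36.5 units with E2 and 4.85, 15.6 and 12.3 units in control. The groups did not overlap, but the control arrays lay near or below 10 units and the difference of 1.55 (SE 0.42) had an adjusted p of 0.159 from limma. Ceruloplasmin, Cp, the ferroxidase of plasma, had -0.44 (SE 0.37) and the heme and drug exporter Abcg2 had 0.03 (SE 0.14).

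Of the 3 further sensing genes tested, limma called 0. Egln1, an iron-dependent prolyl hydroxylase that senses oxygen, was higher on all E2 arrays, at 127, 111 and 131 units with E2 and 109, 84.9 and 79.7 units in control (difference 0.44, adjusted p = 0.442 from limma). Hfe, the hemochromatosis gene, and the hemojuvelin receptor Neo1 overlapped. Hfe averaged 7.54 units with E2 and 13.6 units in control, so that its difference was not measured in full, and Neo1 had a difference of -0.23 (SE 0.24). Hepcidin itself, by Hamp and Hamp2, lay below 10 units in both groups.

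No heme gene was called, but limma called only 28 genes lower and 47 higher of all 8257. It called 0 of 9 genes of heme synthesis and 0 of 9 further genes of heme breakdown and transport. In either list 0 had an unadjusted p under 0.05, where 8.34% of all genes did. Alas1, the rate-limiting enzyme of heme synthesis outside red cells, averaged 86.7 ± 23.8 units with E2 and 112 ± 20.2 units in control, Uros had a difference of -0.39 (SE 0.22) and Alad one of -0.17 (SE 0.14). Alas1 overlapped between the groups, with a difference of -0.39 (SE 0.21). Hpx, the heme-binding hemopexin, was faint in both groups, at 6.22 units with E2 and 11.5 units in control, Pgrmc1, a heme-binding membrane protein, had a difference of 0.13 (SE 0.12), and the heme transporter relative Flvcr2 had 0.37 (SE 0.48).

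No gene of mitochondrial iron and iron-sulfur clusters passed (0 of 19 by limma). At an unadjusted p under 0.05 there were 3, of which 1 was higher and 2 lower, or 15.8% against 8.34% of all genes. Iscu, the scaffold on which the clusters are built, read 289, 264 and 270 units with E2 and 356, 338 and 375 units in control. The E2 arrays were lower and tight (difference -0.38, SE 0.12), yet the adjusted p was 0.280 from limma. Slc25a28, or mitoferrin 2, an iron importer of mitochondria, was lower on all E2 arrays (difference -0.48, SE 0.21, adjusted p = 0.587 from limma), and Ciapin1, a cytosolic cluster assembly factor, overlapped with a difference of 0.40 (SE 0.17, adjusted p = 0.569 from limma).

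Autophagy genes were included because Ncoa4 delivers ferritin to autophagosomes. None of the 23 tested passed (0 by limma, and 0 by an unadjusted p under 0.05). Their differences were negative for 20 genes and positive for 3, and the median was -0.12, where 56.1% of all genes had negative differences and their median was -0.03. Gabarapl2, an Atg8-family protein of the autophagosome membrane, read 196, 185 and 180 units with E2 and 214, 205 and 225 units in control. It lay lower on all E2 arrays, with a difference of -0.20 (SE 0.12, adjusted p = 0.739 from limma). The conjugation factor Atg16l1 and the protease Atg4b overlapped, at -0.47 (SE 0.34) and -0.21 (SE 0.16).

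**Figure D3:**
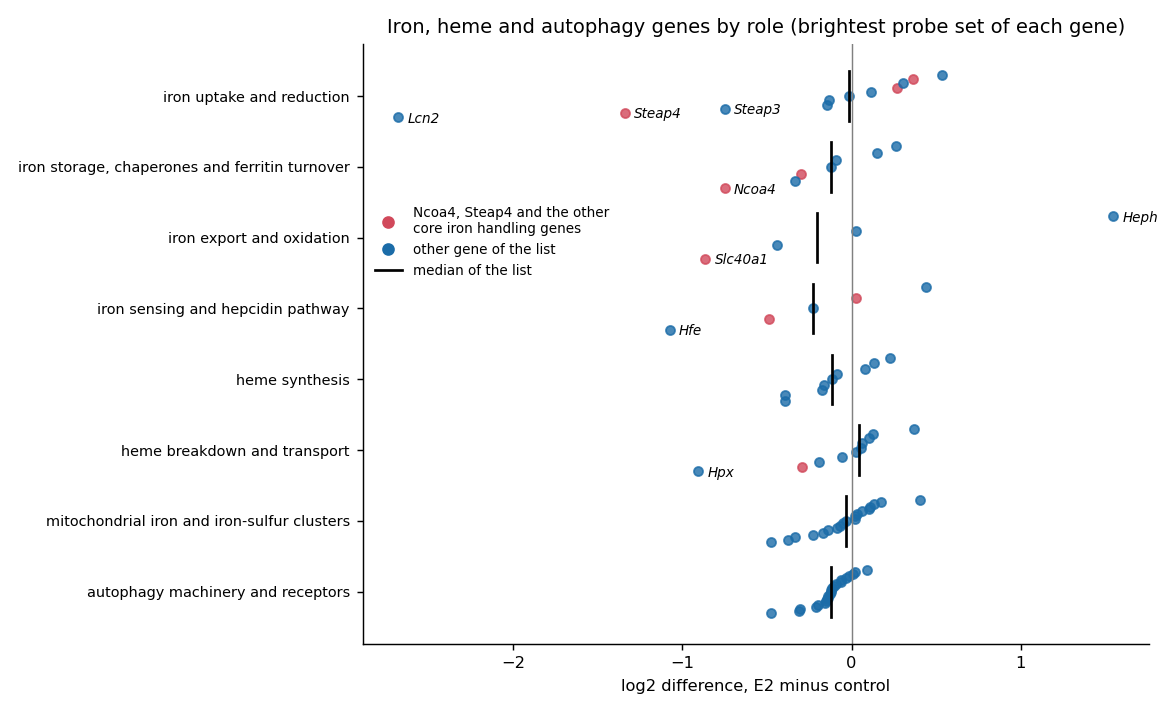
Log2 difference, E2 minus control, of each tested gene by its brightest probe set, with a row for each role in iron, heme or autophagy. Red points are Ncoa4, Steap4 and the other core iron handling genes, blue points the other genes of the list, and black bars the medians over all points of a row. Lcn2 lies farthest left at -2.68 and Heph farthest right at 1.55, and no mitochondrial or autophagy gene lies below -0.48.

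The genes whose pattern was most like that of Ncoa4 (1450006_at) were sought among 3488 probe sets with 1 symbol and a mean of at least 100 units in either group. By Pearson's r of log2 signal over the 6 arrays, they were Nkain4, Hadh, Plekhf1, Svil and Alcam, with r of 0.983, 0.983, 0.982, 0.978 and 0.978. All 5 lay lower on every E2 array, which follows from the choice by likeness to Ncoa4, with differences of -0.58, -0.31, -0.58, -0.46 and -0.73. Plekhf1, Svil and Alcam averaged 80.0, 90.6 and 68.0 units with E2, so they met the limit of 100 units through their control means alone. Hadh is an enzyme of mitochondrial fatty acid oxidation and Alcam a cell adhesion molecule. Among the iron genes, r with that Ncoa4 probe set was 0.919 and 0.878 for the Steap4 probe sets, 0.783 for the second Ncoa4 probe set, 0.760 and 0.644 for Fth1 and -0.900 for the brightest of Slc11a2. The points share 2 groups of 3 arrays, so these values mostly restate the difference between E2 and control.

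The alternatives bear mainly on the size of the Ncoa4, Fth1 and Steap4 differences. For both probe sets of each gene, all E2 arrays lay below all control arrays. Leaving out or weighting arrays, or flooring values, could therefore not reverse the sign. The alternatives left out single arrays or both arrays of high 18S signal, scaled, floored, filtered or weighted the values in other ways, or averaged the probe sets of a gene. Under them the Ncoa4 difference ran from -0.79 to -0.67 by 1450006_at and from -0.93 to -0.50 by 1420808_at. For Steap4 it ran from -1.53 to -0.78 and from -1.09 to -0.50, and for Fth1 from -0.39 to -0.19 and from -0.31 to -0.09. The Tfrc difference of 1452661_at ran from 0.16 to 0.34, and the mean over the regular Tfrc probe sets was 0.15. That of Slc11a2 1452078_a_at ran from 0.26 to 0.44. The sign was the same throughout for these genes by the probe sets named. With arrays left out this was fixed in advance, because the groups of these probe sets did not overlap. Both Aco1 probe sets and the dimmer Tfrc probe sets, whose groups overlapped, took either sign.

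**Figure D4:**
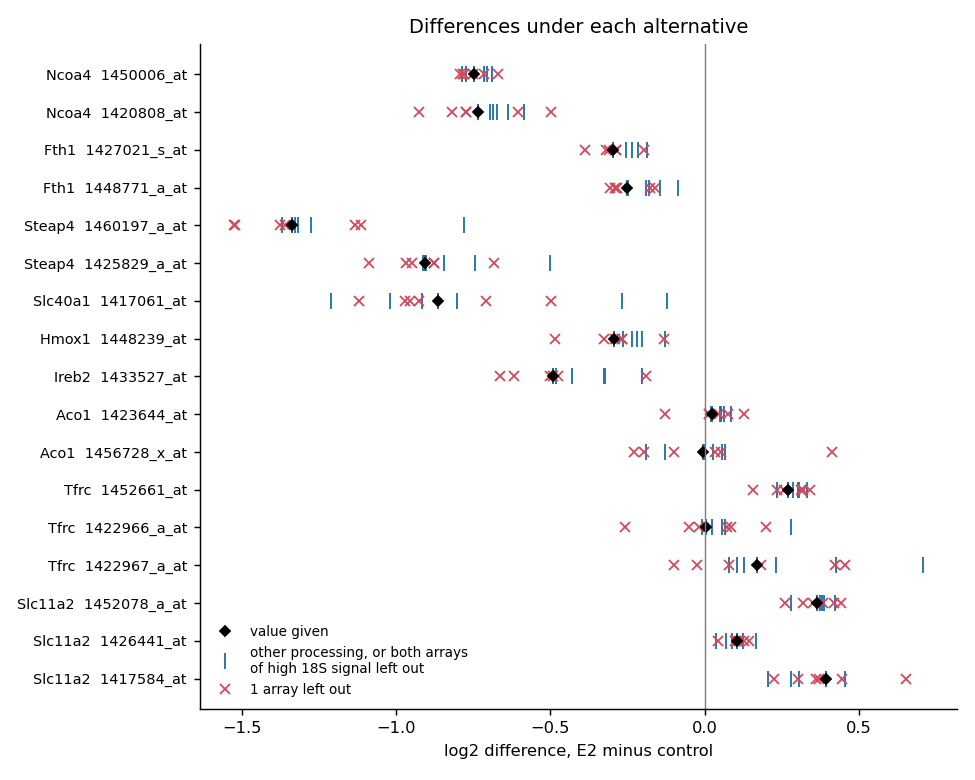
Log2 difference, E2 minus control, of the 17 probe sets tested under each alternative. Black diamonds are the values given, red crosses leave out 1 array, and blue bars mark other processing or both arrays of high 18S signal left out. The Ncoa4 values by 1450006_at stay between -0.79 and -0.67, and the Aco1 values fall on both sides of 0.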

How the data were processed

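RNA from 3 E2 and 3 control cultures was hybridized to 1 array each, and groups and replicate numbers came from the labels. The authors scanned the arrays and summarized them with Affymetrix software (GeneChip Operating Software, then the Expression Console), and the deposited intensity values are linear signals per probe set, with algorithm, scaling and versions not given in the sources used here. Array medians differed by 1.59 times, so each array was divided by its median and put back on the mean median. The fit used R 4.3.3 and limma 3.58.1 (lmFit and eBayes with a variance trend on log2 signals, E2 minus control, two-sided, Benjamini-Hochberg adjustment, threshold 0.05) after removal of 64 array control probe sets. It was tested on simulated data. Gene symbols were those of the array annotation, brought up to date through gene identifiers, and 20393 probe sets had 1 symbol. Promoters came from RefSeq. The genes and lists were chosen with earlier results of these data known. The genes named are the 10 iron genes, in each list any called gene and otherwise up to 3 with the smallest p, and the 5 genes most like Ncoa4, while the marker genes were named after their values were seen. The alternatives were 17 other fits. Precision is limited by the number of arrays (median standard error 0.21). Deviations of same-numbered arrays correlated at 0.01, -0.05 and -0.06. No pairing by replicate number was seen, but 3 arrays per group cannot exclude it.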

Additional observations from a re-analysis of the deposited data

How the results depend on the processing

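Of the member differences recomputed under the alternatives, 305 moved by less than 1 SD of the replicates, 6 moved by more and 0 of those without overlap turned round. The 305 include fits that cannot change a difference of means. These are the fits with another filter or none, without a trend, without moderation, and with the replicate number as a block. For probe sets without overlap, further alternatives could not turn the sign round. These left out or weighted arrays, floored the values or added 16 units. The 0 that turned round was thus largely fixed in advance. The 1 member probe set called lower, 1450006_at of Ncoa4, was not called with the values as deposited, without a variance trend or without moderation (0 called in each). With array weights, a floor of 10 units or log2(value + 16), 2 were called, Ncoa4 and the brighter Steap4 probe set. With single arrays left out 0 to 2 were called lower and 0 to 0 higher. Ncoa4 was lost without E2 replicate 1 or control replicate 2, its second probe set was called without E2 replicate 3, and Steap4 was called without E2 replicate 2. Lcn2, the 1 further iron gene called, was not called without a trend or without moderation (0 in each), and 1 to 1 was called with single arrays left out. Over all probe sets, 70 were called higher and 36 lower. These were 39 and 7 with the values as deposited, 15 and 1 without a trend, 3 and 0 without moderation, 112 and 70 with array weights, and 41 higher with a filter at 100 units, where fewer probe sets were tested. With single arrays left out they were 37 to 75 higher and 11 to 31 lower. With the replicate number as a block, 61 were called higher and 27 lower, 1 member probe set was lower and 1 further iron gene was called. The cause of these changes was not tested. Faint signal limits Steap4 and Slc40a1, which lay near 10 units with E2.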
